A study of Mus musculus with 8 samples.

Results

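The genes described here encode collagens and the proteins that remodel the extracellular matrix. They were chosen from the 16133 genes of the deposited expression table by symbol, as collagen chains, laminin chains, matrix metalloproteinases, tissue inhibitors of metalloproteinases (TIMPs), lysyl oxidases, fibrillins, fibulins, and ADAMTS and ADAMTS-like proteins, with Col20a1 left out. The rule found 103 symbols. Of these, 102 are matrix genes, and Col4a3bp, the ceramide transfer protein, matches only by its letters and is counted apart below. Livers came from METTL14Alb mice (KO), in which Mettl14 is deleted in the liver, and from METTL14f/f mice (WT), which carry the floxed allele. Every mouse in both genotypes had received tunicamycin, a blocker of N-linked glycosylation that causes stress of the endoplasmic reticulum, by intraperitoneal injection at 2 mg/kg for 24 hours. Livers without tunicamycin are not part of this comparison. By usual naming Alb stands for the albumin promoter, which is active in hepatocytes. The labels do not spell out the Cre line or which liver cells lost Mettl14. Polyadenylated RNA was sequenced as input and after precipitation with an antibody to N6-methyladenosine (m6A), with 2 libraries in each of the 4 groups KO input, KO IP, WT input and WT IP. No label ties a library to a mouse of its own, so p-values here measure only the spread between these libraries, which may be technical.

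The extracellular matrix is built by cells around themselves. Fibrillar collagens form the cables of connective tissue, type IV collagen and laminins form the sheets of basement membranes, and fibrillins and fibulins form the scaffold of elastic fibres. Lysyl oxidases crosslink collagen and elastin, metalloproteinases and ADAMTS proteases cut matrix proteins, and TIMPs block these proteases. In liver, hepatic stellate cells are the best known source of fibrillar collagen when they turn into myofibroblasts, while bile ducts, vessels and hepatocytes also make matrix proteins. METTL14 works with METTL3 in the enzyme that writes m6A into mRNA.

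The promoters of 4 genes are shown because their mRNAs mark the main patterns: Col3a1 and Col1a2 for the fibrillar collagens, Mmp7 for the proteases, and Col18a1 for the collagen that was lower in KO. Each sequence covers 250 bases before an annotated start, read 5′ to 3′ on the gene's strand from RefSeq on GRCm38.p6. Capitals mark matches on either strand, so that a match to the other strand appears as its reverse complement. The motifs searched were the TATA box as TATAAA, the CCAAT box by the letters of its name, the GC box as GGGCGG, the AP-1 site as TGANTCA and the TEAD site as CATTCC.
Col3a1 (chr1:45311288-45311537, plus strand): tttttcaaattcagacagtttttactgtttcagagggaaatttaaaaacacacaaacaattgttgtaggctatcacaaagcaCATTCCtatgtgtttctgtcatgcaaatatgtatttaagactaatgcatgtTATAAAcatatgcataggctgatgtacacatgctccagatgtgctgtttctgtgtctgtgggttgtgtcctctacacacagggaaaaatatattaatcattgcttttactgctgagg
Col1a2 (chr6:4505368-4505617, plus strand): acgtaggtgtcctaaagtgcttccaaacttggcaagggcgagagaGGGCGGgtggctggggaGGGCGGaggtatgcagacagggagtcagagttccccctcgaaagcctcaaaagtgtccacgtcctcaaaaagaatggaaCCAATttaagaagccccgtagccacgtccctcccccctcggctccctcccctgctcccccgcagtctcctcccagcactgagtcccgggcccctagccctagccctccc
Mmp7 (chr9:7691840-7692089, plus strand): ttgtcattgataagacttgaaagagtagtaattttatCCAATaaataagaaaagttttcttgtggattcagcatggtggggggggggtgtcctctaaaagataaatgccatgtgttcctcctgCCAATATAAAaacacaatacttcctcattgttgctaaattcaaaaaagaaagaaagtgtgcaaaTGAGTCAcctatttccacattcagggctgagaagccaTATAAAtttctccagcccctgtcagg
Col18a1, upstream start (chr10:77166531-77166780, minus strand): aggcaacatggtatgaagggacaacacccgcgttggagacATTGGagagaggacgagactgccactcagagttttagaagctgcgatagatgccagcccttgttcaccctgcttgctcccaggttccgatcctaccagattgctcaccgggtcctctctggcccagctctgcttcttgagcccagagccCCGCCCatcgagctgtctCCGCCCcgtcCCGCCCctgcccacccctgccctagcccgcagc
Col18a1, downstream start (chr10:77113706-77113955, minus strand): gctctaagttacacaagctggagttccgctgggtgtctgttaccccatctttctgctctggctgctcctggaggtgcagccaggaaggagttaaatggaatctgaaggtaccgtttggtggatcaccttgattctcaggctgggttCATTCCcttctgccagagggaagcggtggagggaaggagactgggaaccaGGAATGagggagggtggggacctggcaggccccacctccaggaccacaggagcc

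These windows differed from each other in the letters they hold. The Col3a1 window held 1 TATAAA and 1 CATTCC, and the Mmp7 window held 2 matches each to TATAAA and CCAAT, of which 1 pair shares a base, and 1 TGAGTCA. RefSeq has another Mmp7 start 251 bases downstream, whose window is not printed. Col1a2, in contrast, had 2 matches to GGGCGG and 1 to CCAAT. The upstream Col18a1 window had 3 matches to GGGCGG and 1 to CCAAT, and the downstream window had 2 to CATTCC. Over the 80 windows of 71 members, GGGCGG was found in 57.5%, against 32.7% of all 32851 windows of this length. TATAAA was found in 11.25% of member windows and 12.4% of all windows, and CCAAT in 28.75% and 33.8%. TGANTCA was found in 6.25% of member windows and 6.75% of all, and CATTCC in 8.75% and 12.6%. A match is a run of letters and says nothing of binding.

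Expression values come from the authors' comparison of the input libraries, and read counts of each input library were recovered from the digits of its mean counts. The recovered values carry no replicate number, so the KO libraries are named A and B and the WT libraries likewise. Estimated totals were 12654312 and 12326054 reads in KO A and KO B, and 16792259 and 13521471 reads in WT A and WT B. Counts could be recovered for all 103 members. No source names the numerator of the fold change. The peak lists were used to read it as KO over WT. Outside the matrix genes and at mean counts of 100 or more, 331 genes had a log2 change above 2 in the authors' deposited table, of which 147 had peaks in KO but not WT and 0 in WT but not KO. Below a log2 change of −2 stood 403 such genes in the authors' deposited table, 30 with peaks in KO but not WT and 46 with peaks in WT but not KO. If this reading were wrong, every KO and WT label of an expression value below would change places.

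Mettl14 itself had 64.6 and 62.0 normalized counts in the KO libraries, against 79.8 and 99.7 in the WT libraries. In the authors' deposited table its log2 change was −0.50 ± 0.41 (SE, DESeq2 adjusted p = 0.342), and with total-count scaling it was 0.32. The labels do not say which exons the deletion removes, so this count over the whole gene does not check the genotype labels.

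Most matrix genes that passed the test were higher in KO. Of the 103 members, 85 had an adjusted p in the authors' deposited table, and 51 were higher in KO and 2 lower at an adjusted p under 0.05, while 32 did not pass. limma, run as an alternative on the recovered counts, had 56 higher and 2 lower (Lama3 and Lamb3), beside 25.5% and 24% of all genes. The authors' calls are 60% and 2.35% of tested members, beside 20.4% of all 14257 tested genes called higher and 22.2% called lower. The median log2 change of tested members in the authors' deposited table was 1.75, against 0.046 for all tested genes. Of the members called higher, 48 rose at least 2-fold, 33 at least 4-fold and 17 at least 8-fold in the authors' deposited table. The 18 members with no adjusted p had mean counts of 0.425 to 2.50 in the authors' deposited table, and no library held more than 6 reads of any of them, so that a change in them was not detectable at this depth.

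The single libraries separated in the same way. Both KO libraries lay above both WT libraries for 72 of 103 members (69.9%), against 39.1% of all 15925 genes with recovered counts, and below both for 7 members, against 33.4% of genes. Groups overlapped for 24 of the 103 members, against 4386 of the 15925 genes, so most genes were free of overlap, member or not. All 53 called members were free of overlap, and so were 18 of the 32 that did not pass. The calls rest on the same libraries, so this is no separate support for them. The share without overlap among all called genes was not counted. Scaling to total counts in place of the authors' size factors moved the median of all genes by 0.80 on the log2 scale and made 88.6% of all calls higher, against 51.5% with the size factors. Under that scaling 52 of the 53 kept their sign, and Col18a1 did not. The scaling moves changes upward, so members called higher could not turn, and their kept sign is no support. Of the 2 called lower, Col18a1 turned positive and Lama3 stayed negative at −2.02. Of all tested members 8 turned from negative to positive. Changes below are therefore relative to the authors' size factors. In RNA from whole liver, fewer cells of a type and less RNA per cell cannot be told apart.

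**Figure D1:**
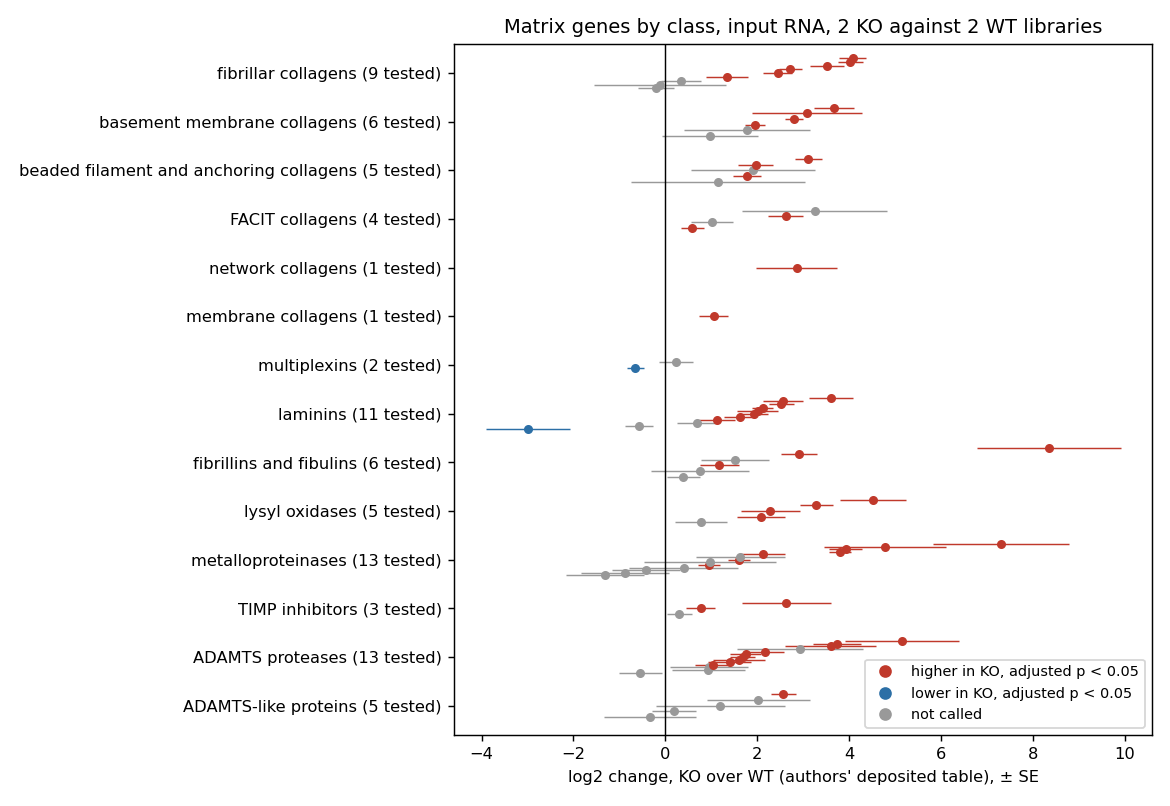
Each point is 1 tested matrix gene with its log2 change, KO over WT, and its SE from the authors' deposited table, by class. Red points (51) passed at an adjusted p under 0.05 and were higher in KO, blue points (Col18a1 and Lama3) were lower, and grey points (31) did not pass. Each lysyl oxidase, basement membrane collagen and tested TIMP stands right of 0.

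Fibrillar collagens, the chains of type I, III, V and related cables, were among the clearest changes. Of 10 chains listed, 9 were tested, and 6 were higher in KO, 0 lower and 3 did not pass. Col3a1, the chain of type III collagen, had 3145 and 1763 normalized counts in the KO libraries, against 158 and 143 in the WT libraries. Its log2 change in the authors' deposited table was 4.02 ± 0.27 (SE, DESeq2 adjusted p = 4.16e-47), which is 16.3-fold. The KO libraries stood far above the WT libraries, and KO A was well above KO B.

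Both chains of type I collagen, the main fibril of scar tissue, rose as well. Col1a1 had 1516 and 908 normalized counts in KO, against 80.9 and 61.9 in WT. Col1a2 had 1249 and 941 in KO, against 187 and 145 in WT. In the authors' deposited table Col1a1 changed by 4.08 ± 0.30 and Col1a2 by 2.72 ± 0.25 on the log2 scale (SE, DESeq2 adjusted p = 6.68e-41 and 6.39e-26), and neither gene's groups overlapped. Type V collagen, which sits inside type I fibrils and limits their width, split by chain. Col5a2 had 491 and 298 normalized counts in KO, against 39.9 and 28.3 in WT, and Col5a1 had 507 and 368 in KO, against 93.8 and 66.0 in WT. Col5a3 overlapped, with 125 and 153 normalized counts in KO and 100 and 221 in WT. The log2 changes in the authors' deposited table were 3.52 (Col5a2, DESeq2 adjusted p = 3.7e-20), 2.45 (Col5a1, 5.12e-14) and −0.20 (Col5a3, 0.717). Col27a1 was higher by 1.35 in log2 units in the authors' deposited table (DESeq2 adjusted p = 0.00993). Col11a2 (0.34) and Col24a1 (−0.11) did not pass in the authors' deposited table, and Col11a1 was not tested.

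Type IV collagen, the network of basement membranes, is encoded by 3 pairs of genes that lie head to head. The RefSeq spans of Col4a1 and Col4a2 overlap by 85 bases and those of Col4a3 and Col4a4 by 114 bases, while 1274 bases lie between Col4a5 and Col4a6. All 6 chains were above WT in both KO libraries, and 4 of the 6 passed. Col4a1 had 5639 and 4708 normalized counts in KO, against 783 and 695 in WT, and its partner Col4a2 had 3404 and 2557 in KO, against 716 and 823 in WT. In the authors' deposited table their log2 changes were 2.81 ± 0.19 and 1.95 ± 0.21 (SE, DESeq2 adjusted p = 1.17e-45 and 5.12e-19). The difference between partners was not tested.

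The other type IV pairs held 1 called chain each. Col4a5 had 261 and 207 normalized counts in KO, against 22.6 and 13.5 in WT, a log2 change of 3.67 in the authors' deposited table (DESeq2 adjusted p = 1.51e-16). Col4a4 was low everywhere, with 26.3 and 13.6 normalized counts in KO and 3.23 and 1.35 in WT (3.09 in the authors' deposited table, DESeq2 adjusted p = 0.0259). Their partners Col4a6 and Col4a3 did not exceed 20 normalized counts in any library and did not pass.

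**Figure D2:**
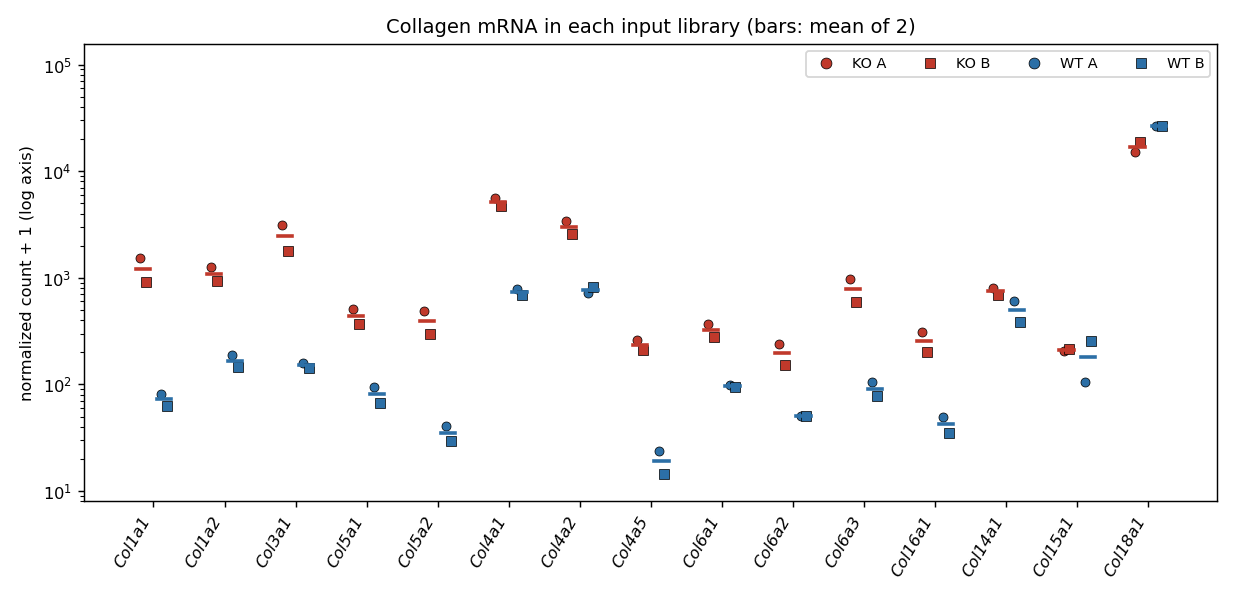
Normalized counts plus 1 on a log axis for 15 collagen genes in each input library, KO (red) left of WT (blue), with circles for libraries A, squares for libraries B and bars for the mean of 2. Col1a1 to Col5a2, Col4a1, Col4a2, Col4a5, Col6a1 to Col6a3 and Col16a1 separate widely, the groups of Col15a1 overlap, and Col18a1 is lower in KO.

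Among the other collagens, type VI chains, which form beaded filaments beside cells, rose together. Col6a3 had 979 and 591 normalized counts in KO, against 104 and 76.8 in WT. Col6a1 and Col6a2, which are neighbours 85161 bases apart, had 368 and 280 and 236 and 152 in KO, against 97.0 and 92.9 and 49.6 and 49.8 in WT. Their log2 changes in the authors' deposited table were 3.12 (Col6a3), 1.77 (Col6a1) and 1.97 (Col6a2), with DESeq2 adjusted p = 2.82e-23, 4.98e-08 and 1.95e-06. Col6a6 and Col7a1, the anchoring fibril chain, did not pass, and Col6a4, Col6a5 and Col28a1 were not tested. Of the collagens that decorate fibrils (FACIT), Col16a1 had 307 and 202 normalized counts in KO, against 48.5 and 33.7 in WT. Col14a1 had 805 and 692 in KO, against 606 and 388 in WT. The authors' deposited table gave log2 changes of 2.62 for Col16a1 (DESeq2 adjusted p = 5.54e-11) and 0.59 for Col14a1 (0.0483). Without WT B limma gave Col14a1 a change of 0.30 (adjusted p = 0.14), and it no longer passed. Col12a1 and Col9a3 had both KO libraries above WT but did not pass, at DESeq2 adjusted p = 0.0593 and 0.0836 in the authors' deposited table. The network collagen Col8a1 and the membrane collagen Col13a1 were higher, by 2.86 and 1.05 in log2 units in the authors' deposited table (DESeq2 adjusted p = 0.00382 and 0.00255).

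Col18a1, which encodes the basement membrane collagen that carries endostatin and is made by hepatocytes, went the other way. It had 15023 and 18858 normalized counts in KO, against 26747 and 26434 in WT. The groups did not overlap, and the WT libraries lay close together. The log2 change was −0.65 ± 0.18 in the authors' deposited table (SE, DESeq2 adjusted p = 0.00151), which is 1.57-fold lower. This call depends on the method and the scaling: limma gave an adjusted p of 0.0645, and total-count scaling gave a log2 change of 0.16. Col15a1, the other multiplexin, overlapped between groups, with 206 and 214 normalized counts in KO and 105 and 255 in WT.

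Laminins are trimers of an alpha, a beta and a gamma chain. Of 11 chains tested, 8 were higher, 1 was lower and 2 did not pass. Lamc1, the gamma chain of most laminins, had 963 and 881 normalized counts in KO, against 193 and 232 in WT. Lama5 had 669 and 641 in KO, against 135 and 91.6 in WT. Lamb2 had 438 and 324 in KO, against 123 and 76.8 in WT, and Lamb1 had 383 and 332 in KO, against 156 and 74.1 in WT. None of these groups overlapped. In the authors' deposited table log2 changes were 2.12 (Lamc1), 2.52 (Lama5), 1.92 (Lamb2) and 1.63 (Lamb1), with DESeq2 adjusted p = 7.63e-19, 1.25e-19, 1.38e-08 and 1.01e-05. Lama4, Lama2 and Lamc3 rose too, by 2.56, 2.01 and 1.12 in log2 units in the authors' deposited table, and Lama1 did not pass.

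Lama3, an alpha chain of epithelial laminin, went the other way. It had 4.78 and 2.55 normalized counts in KO, against 30.2 and 28.3 in WT. Lamb3, a beta chain, had 149 and 129 in KO, against 202 and 211 in WT. Both KO libraries lay below both WT libraries for each of these genes. The log2 changes in the authors' deposited table were −2.99 ± 0.91 (Lama3, SE, DESeq2 adjusted p = 0.00366) and −0.57 ± 0.30 (Lamb3, 0.116). With limma Lamb3 had an adjusted p of 0.0359, and with total-count scaling its change was 0.25, while Lama3 stayed negative at −2.02. Lama3 had 28 and 21 reads in WT A and WT B.

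Lysyl oxidases were higher in 4 of 5 cases. Loxl2, which also crosslinks basement membrane collagen, had 334 and 263 normalized counts in KO, against 31.3 and 29.6 in WT. Loxl1, which acts on elastin, had 108 and 82.4 in KO, against 5.39 and 2.69 in WT. Lox and Loxl4 were higher as well, with 90.8 and 50.1 and 74.9 and 87.5 in KO, against 21.6 and 6.73 and 19.4 and 18.9 in WT. The authors' deposited table gave log2 changes of 3.29 (Loxl2), 4.52 (Loxl1), 2.29 (Lox) and 2.08 (Loxl4), with DESeq2 adjusted p = 2.88e-18, 5.37e-09, 0.00143 and 0.000329. Loxl3 lay above WT in both KO libraries (60.6 and 43.3 in KO, 39.9 and 20.2 in WT) but did not pass.

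Fibrillins, the microfibril proteins, were both higher. Fbn1 had 406 and 251 normalized counts in KO, against 58.2 and 28.3 in WT (log2 change 2.91 in the authors' deposited table, DESeq2 adjusted p = 8.86e-13). Fbn2, known best from development, had 100.4 and 44.2 in KO and no read in either WT library. Against a floor of 3 reads over the WT group, Fbn2 was at least 40.2-fold higher in KO (DESeq2 adjusted p = 7.27e-07 in the authors' deposited table). Among the fibulins Fbln2 rose by 1.17 in log2 units in the authors' deposited table (DESeq2 adjusted p = 0.0167), and Fbln1, Fbln5 and Fbln7 did not pass.

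Of 13 tested metalloproteinases 7 were higher and 0 lower. Mmp15, a protease held in the cell membrane, had 2501 and 3091 normalized counts in KO, against 163 and 238 in WT. Its log2 change of 3.81 ± 0.23 in the authors' deposited table had the smallest adjusted p of all members (SE, DESeq2 adjusted p = 2.75e-57). Mmp7, or matrilysin, known from epithelia and bile ducts, had 398 and 329 in KO, against 24.8 and 22.9 in WT. Mmp14, the membrane protease that activates Mmp2, had 1388 and 1377 in KO, against 370 and 541 in WT, and Mmp2 had 139 and 79.9 in KO, against 24.8 and 25.6 in WT. Mmp19 had 1378 and 1407 in KO, against 578 and 865 in WT. These groups did not overlap. The authors' deposited table gave log2 changes of 3.93 for Mmp7, 1.60 for Mmp14, 2.12 for Mmp2 and 0.95 for Mmp19 (DESeq2 adjusted p = 2.37e-25, 3.92e-11, 8.08e-05 and 0.00017).

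Several proteases were nearly absent in WT. Mmp24, also held in the membrane, had 80.5 and 109.6 normalized counts in KO and 1.08 and 0 in WT, and Mmp12, the macrophage elastase, had 53.4 and 12.7 in KO and 1.08 and 1.35 in WT. From 230 reads in KO and 1 in WT, the Mmp24 ratio was 158 with an exact 95% interval of 28.1 to 6266. Mmp12 had 82 reads in KO and 2 in WT, a ratio of 28.2 (7.55 to 236). These intervals cover counting error only. The neutrophil enzymes Mmp8 and Mmp9 did not pass, with 6.38 and 11.9 and 11.2 and 8.50 normalized counts in KO, against 10.8 and 22.9 and 12.9 and 36.4 in WT. Mmp11, Mmp17, Mmp23 and Mmp28 did not pass, and Mmp3, Mmp13, Mmp25 and Mmp27 were not tested.

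Of 4 TIMPs 3 were tested, and 2 were higher. Timp1 had 22.3 and 31.4 normalized counts in KO, against 2.16 and 6.73 in WT, and Timp2 had 355 and 247 in KO, against 212 and 140 in WT. Their log2 changes in the authors' deposited table were 2.64 ± 0.97 and 0.77 ± 0.31 (SE, DESeq2 adjusted p = 0.0185 and 0.0354). Timp3 overlapped, with 696 and 503 in KO and 582 and 385 in WT, and did not pass (DESeq2 adjusted p = 0.373 in the authors' deposited table). Without WT A limma gave Timp3 a log2 change of 0.62 (adjusted p = 0.0227), and without WT B it gave Timp2 0.48 (adjusted p = 0.0994), which no longer passed. Timp1 lies inside Syn1 and Timp3 inside Syn3. The RNA kit was stranded, but no source used here says whether counting used the strand.

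**Figure D3:**
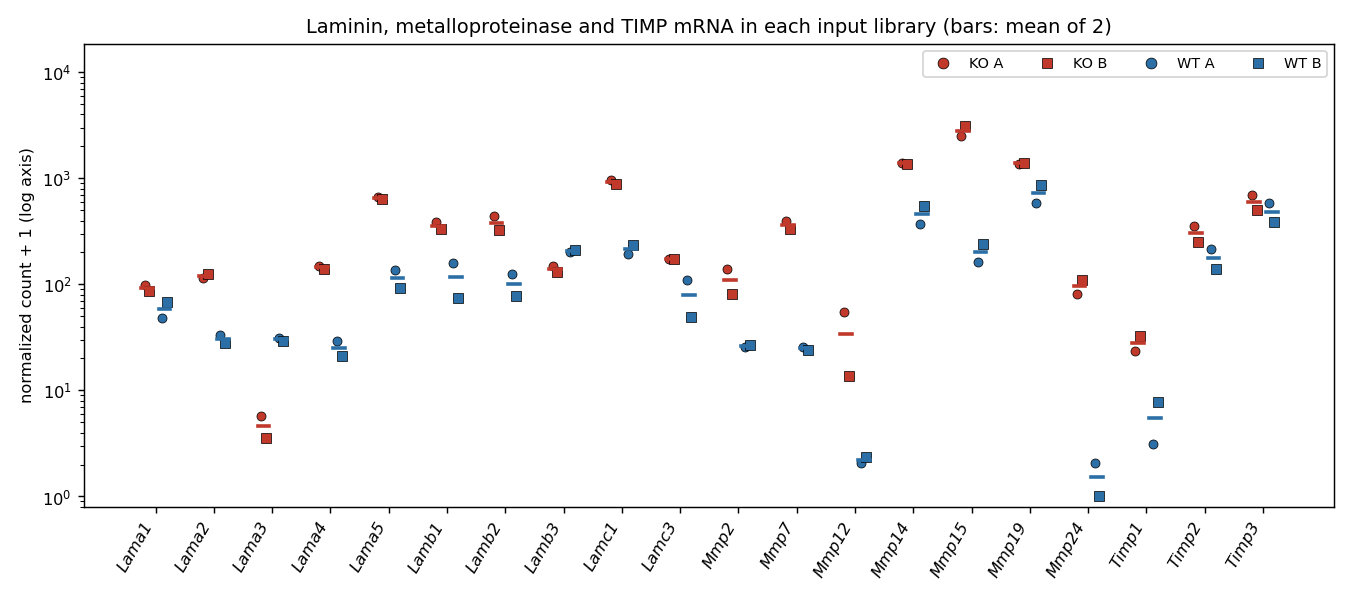
Normalized counts plus 1 on a log axis for 10 laminin chains, 7 metalloproteinases called higher and 3 TIMPs, KO (red) left of WT (blue), with bars for the mean of 2 libraries. Lama3 is the laminin shown with KO far below WT, Lama5 and Lamc1 lie above it, and Mmp24 has 1.08 and 0 normalized counts in WT.

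ADAMTS proteases cut proteoglycans and procollagen. Of 13 tested, 9 were higher and 0 lower. Adamts9, which cuts versican, had 148 and 138 normalized counts in KO, against 11.9 and 9.43 in WT, and Adamts1 had 409 and 455 in KO, against 144 and 124 in WT. The enzymes that trim procollagen, Adamts2 and Adamts14, had 257 and 211 and 171 and 149 in KO, against 78.7 and 59.3 and 23.7 and 48.5 in WT. The log2 changes in the authors' deposited table were 3.74 (Adamts9), 1.68 (Adamts1), 1.75 (Adamts2) and 2.16 (Adamts14), with DESeq2 adjusted p = 7.09e-12, 3.62e-09, 1.56e-06 and 2.9e-06. Adamts3, of the same procollagen group, overlapped and did not pass. Adamts4 had 103 reads in KO and 2 in WT, a ratio of 35.4 with an exact 95% interval of 9.55 to 296. Adamts5, Adamts10, Adamts12 and Adamts15 rose by 1.04 to 3.60 in log2 units in the authors' deposited table. Adamts13, which cuts von Willebrand factor and is made by stellate cells, overlapped, with 68.5 and 46.7 in KO and 108 and 59.3 in WT. Of 5 ADAMTS-like proteins, which lack the protease part, Adamtsl2 was higher, with 653 and 625 normalized counts in KO, against 133 and 80.8 in WT (2.57 in the authors' deposited table, DESeq2 adjusted p = 1.09e-18). The rule's outsider Col4a3bp had 277 and 309 in KO and 330 and 331 in WT and did not pass.

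Libraries of the same genotype differed in the collagens, in both genotypes. Among 20 collagen genes with mean counts of 50 or more, KO A was above KO B for 16 and WT A above WT B for 14, with median ratios of 1.33 and 1.20. Over all 10331 such genes KO A was above KO B for 4404 and WT A above WT B for 5008, with median ratios of 0.973 and 0.992. For 5 metalloproteinases the median ratios were 1.01 in KO and 0.683 in WT.

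Genes of the same pathway outside the rule were read from 4 lists. Of 27 tested other matrix proteins 19 were higher and 1 lower, beside 20.4% higher and 22.2% lower over all tested genes. Thbs1, a cell-binding glycoprotein, and Eln, elastin, changed by 4.49 and 3.69 in log2 units in the authors' deposited table (DESeq2 adjusted p = 2.74e-27 and 1.27e-25). Enzymes that make collagen were mixed, with 12 higher and 6 lower of 22. Serpinh1, the collagen chaperone, was higher (505 and 394 normalized counts in KO, against 101.4 and 101.0 in WT). Plod1, a lysyl hydroxylase, was lower (991 and 1125 in KO, against 4039 and 3306 in WT), and so was Ppib, a prolyl isomerase, by −1.42 in log2 units in the authors' deposited table (DESeq2 adjusted p = 7.59e-15). Of 21 matrix receptors 13 were higher and 2 lower. Ddr1, a collagen receptor, had 1250 and 1151 in KO, against 43.1 and 31.0 in WT, and Itga6, the alpha6 chain of a laminin receptor, had 693 and 552 in KO, against 22.6 and 29.6 in WT. Other proteases and inhibitors gave 6 higher and 3 lower of 17, with Plat, the tissue plasminogen activator, at 341 and 291 in KO, against 8.63 and 2.69 in WT. Pzp, a broad protease inhibitor, was lower, by −2.19 in log2 units in the authors' deposited table (DESeq2 adjusted p = 4.29e-21).

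Markers of cells that could make matrix moved unevenly beside these genes. Of 16 stellate and myofibroblast markers 8 were higher and 0 lower. All 16 together, including those that did not pass, summed to 9390 and 8181 normalized counts in KO and to 8499 and 6545 in WT. The contractile genes Acta2 and Tagln had 261 and 195 and 519 and 425 in KO, against 19.4 and 16.2 and 59.3 and 40.4 in WT. The other markers called higher were Pdgfrb, Pdgfra, Cygb, Ngfr, Reln and Rgs5, so the rise was not limited to contractile genes. In the authors' deposited table Pdgfrb changed by 1.82 and Pdgfra by 0.96 in log2 units (DESeq2 adjusted p = 5.6e-08 and 0.00137). Lrat, Des, Dcn and Lum, which mark stellate cells and fibroblasts, were among the markers that did not pass. Dcn had 2747 and 2453 in KO and 2979 and 2341 in WT. Dcn and Ecm1 were the largest parts of the sums of all 16, with mean counts of 2630 and 2195 in the authors' deposited table. Their log2 changes there were −0.03 and −0.41, while the median of the 16 was 0.66. Of 10 cholangiocyte markers 8 were higher and 0 lower. All 10 together summed to 4758 and 3735 normalized counts in KO, against 832 and 1025 for WT. Spp1, the largest part of these sums, had 3311 and 2460 in KO, against 527 and 696 in WT. Krt19 had 163 and 210 in KO, against 16.2 and 14.8 in WT. Krt7 and Sctr did not pass, with log2 changes of 4.04 ± 2.24 and 3.29 ± 2.22 in the authors' deposited table (SE, DESeq2 adjusted p = 0.138 and 0.234). Cftr, a bile duct channel, had 33.5 and 16.1 in KO and no read in WT. The part of these cell types in the matrix changes was not tested.

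Endothelial, macrophage and neutrophil markers did not show such a shift as lists, though the macrophage marker Cd68 rose. Of 12 endothelial markers 0 were higher and 1, Clec4g, was lower, with sums of 5059 and 4701 in KO and 5059 and 3803 in WT. Of 12 macrophage markers 1, Cd68, was higher and 2, Clec4f and Vsig4 of resident macrophages, were lower. Cd68 had a mean count of 1266 and a log2 change of 3.65 in the authors' deposited table (DESeq2 adjusted p = 2.31e-54). All 12 summed to 7320 and 6405 in KO and 6550 and 5971 in WT, and Cd68 fills more of the KO sums than of the WT sums. The median log2 change of the 12 was −0.21. Of 4 tested neutrophil markers 0 passed in either direction, and sums were 242 and 163 in KO and 121 and 300.3 in WT. Of 9 tested hepatocyte markers 8 were lower in KO and 1, Apoa1, was higher. Asgr1, a hepatocyte receptor, had 1191 and 1325 in KO, against 8716 and 9964 in WT. Hnf4a and Asgr1, the hepatocyte markers with recovered counts, summed to 5373 and 6182 in KO, against 21620 and 21637 in WT, so hepatocyte RNA was present in every library. No marker with recovered counts was at 0 in all libraries.

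**Figure D4:**
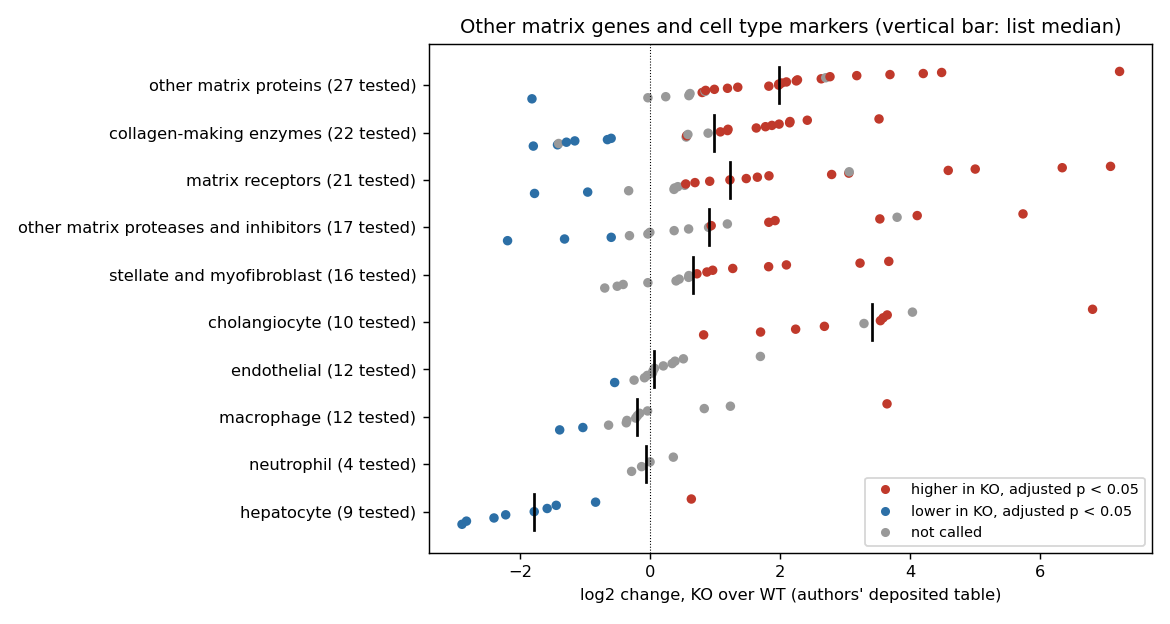
Log2 change, KO over WT, from the authors' deposited table for 4 further matrix lists and 6 cell type marker lists, with a vertical bar at each list's median. Red and blue points passed at an adjusted p under 0.05. Cholangiocyte markers lie right of 0, hepatocyte markers other than Apoa1 left of it, and the endothelial, macrophage and neutrophil medians are near 0.

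The antibody-enriched RNA gave 1 list of m6A peaks per genotype, with 12290 peaks in KO and 5586 in WT. Each peak has the authors' enrichment, taken as a ratio of enriched over input RNA, and no replicate value. In the KO list 22 of the 103 members had a peak, 56 peaks in all, and in the WT list 2 had one, Col18a1 with 8 and Mmp14 with 1. Over all 16133 genes, 36.3% had a KO peak and 18.5% a WT peak. A peak can be called only where a gene has reads. At mean counts of 100 or more over both genotypes, 19 of 38 tested members (50%) had KO peaks, against 62.2% of such genes. A WT peak was listed for 2 of these 38 (5.26%), against 32.4%. This mean lets members pass through KO alone, such as Col4a5 and Mmp7 with WT means of 18.1 and 23.8. The KO shares are therefore not matched for KO expression, nor the WT shares for WT expression, and no conclusion is drawn from either. Every member with a KO peak had a KO mean of at least 124 normalized counts, and 22 of the 47 members with a KO mean of at least 100 had one. Of 21 members with a WT mean of at least 100, 2 had a WT peak. The shares of all genes with a peak at such KO or WT means were not counted, so these 2 counts have no background. Of the 22 genes with a KO peak, 20 were called higher in KO, 1 lower and 1, Timp3, did not pass. Over all 5861 tested genes with a KO peak, 20.8% were called higher and 34.1% lower. The direction of these calls rests on the reading of the fold change from the peak lists given above. Whether more mRNA alone gives these peaks was not tested.

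Peaks were placed along the RefSeq span of their gene. Of 56 KO peaks 23, in 14 genes, were in the last 10% of the span, 9, in 8 genes, in the first 10%, and 24 between. These are 41.1% and 16.1% of member peaks, against 32.0% and 23.3% of the 11733 KO peaks that could be placed on any gene. Col18a1 gave 13 of the 56, and without it 44.2% lay in the last and 18.6% in the first 10%. Fbn1 carried the highest enrichment, 225, in a peak at chr2:125301695-125301793, 1149 bases before its 3′ end on the minus strand. Col1a2 had a peak at each end, with an enrichment of 92.4 at chr6:4505798-4505896, 228 bases after the start next to the promoter printed above, and of 154.5 at chr6:4540596-4540844. Col3a1 had peaks with enrichments of 4.37 and 14.3, and Col1a1, with 1212 normalized counts in KO, had none. Mmp7 had 1 peak of 98 bases in 2 blocks, with an enrichment of 32.7. The median enrichment of member peaks was 10.5 in the KO list, against 13.1 over the whole list. Coordinates are on mm10, and whether a peak lies in an exon, an intron or a UTR was not annotated here.

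Col18a1 and Mmp14 had peaks in both lists. The Mmp14 peak at chr14:54440361-54440659 in WT had an enrichment of 167 and shared all its 299 bases with the KO peak at chr14:54439991-54440759, whose enrichment was 10.6. Mmp14 had 3 further KO peaks, 1 of them 105 bases after the start with an enrichment of 59.6. In Col18a1 13 KO peaks and 8 WT peaks were listed, and 5 of the KO peaks shared at least 1 base with 6 of the WT peaks. Enrichments ranged from 1.70 to 5.86 in KO and from 0.785 to 31.5 in WT. The lowest WT value belongs to a peak with an authors' p of 0.968. The first KO peak of Col18a1 spans chr10:77113421-77166480 in 3 blocks, from the upstream to the downstream start printed above, with 1 enrichment of 5.86. In WT the same stretch held separate peaks, with 31.5 at the upstream start and 10.6 at chr10:77113520-77113668 by the downstream start. The median enrichment of the whole lists was 13.1 in KO and 24.2 in WT, whether the lists share a scale is not stated, and the differences between genotypes have no replicate check.

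**Figure D5:**
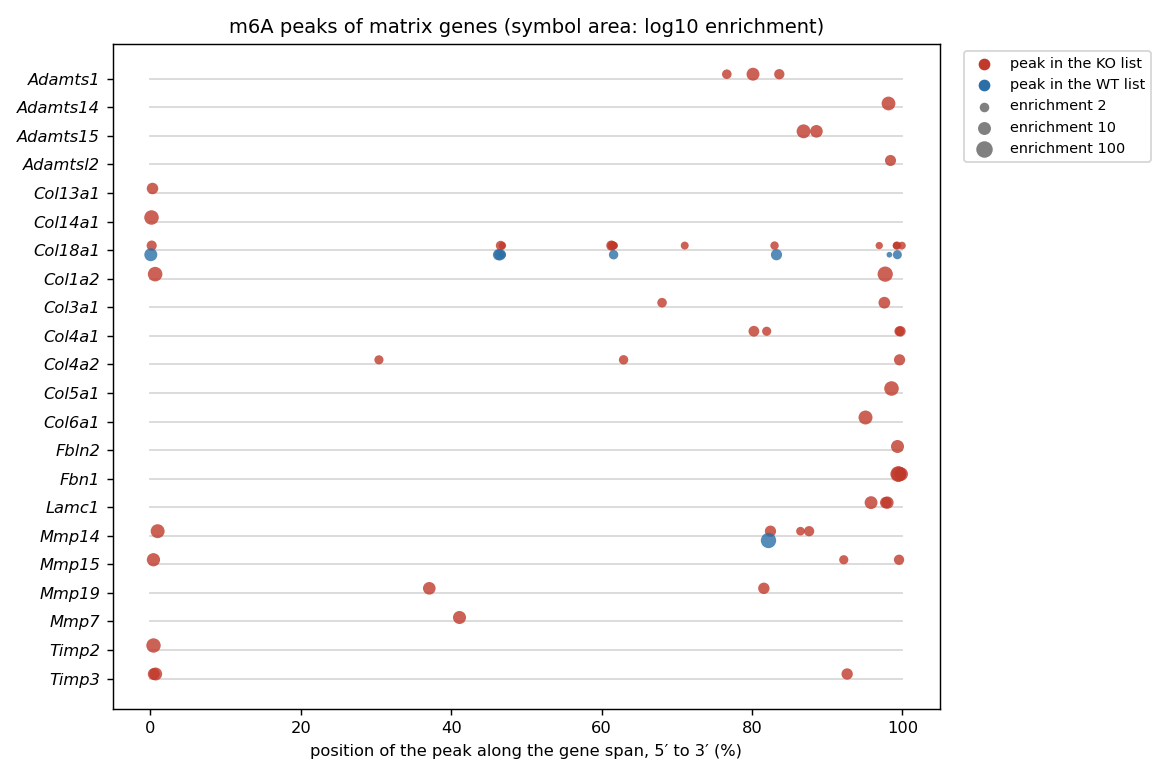
Positions of m6A peaks along the gene span, in percent 5′ to 3′, for 22 matrix genes, KO list (red) above WT list (blue), with symbol area by log10 enrichment. WT peaks are listed for Col18a1 and Mmp14, and 23 of the 56 KO peaks fall in the last 10% of the span.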

How the data were processed

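Liver input and m6A-enriched polyadenylated RNA of KO and WT mice was sequenced. Alignment used HISAT2 2.1.0 and the test DESeq2 1.18.1 on mm10, per the submitters' processing notes. No source used here names the counter, annotation or peak caller. The deposited table holds the authors' mean per gene, a signal of counts divided by size factors, a log2 fold change with its SE, a Wald statistic taken as a score, and the authors' p-value and adjusted p-value. The deposited peak lists hold an enrichment, taken as a ratio, and the authors' p-value per peak, 1 value per genotype. Members were called at a deposited adjusted p under 0.05.

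The digits of the deposited means gave the counts of each library, since a mean is a sum of 4 whole counts times a step per library (size factors 1.25, 1.18, 0.927 and 0.743), for 15925 genes (98.7%), 6931 of them, and 65 members, without the deposited fold change as a guide. Fold changes refitted for 3608 genes found without it differed from the deposited log2 values by 1.02e-06 in the median and 0.0195 at the most. limma 3.58.1 (R 4.3.3) with its trend option used log2 of normalized counts plus 1 of 14049 recovered genes with a deposited adjusted p, as an alternative; both steps were tested on simulated data. Intervals and floors cover counting error only, and a fold against 0 uses a floor of 3 reads over the WT group.

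Named in any case were Mettl14, per class up to 4 called members with the smallest adjusted p, members with peaks, and the top 2 called genes of other lists; other genes are named as list members or after their values were seen. The members and lists were chosen with earlier results of these data known. Alternatives were a stricter threshold, limma, scaling, pseudocount, a filter on low counts, leaving out each library, and peak filters. Library replicate numbers are unknown, so no block was used. Every member is counted in the totals, and the values of some are not reported here.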

Additional observations from a re-analysis of the deposited data

How the results depend on the processing

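With limma 56 members were higher and 2 lower in KO, Lama3 and Lamb3. Total-count and upper-quartile scaling each left 1 lower member, Lama3. Under total-count scaling the median log2 change of members was 2.56, where the median of all genes moved by 0.80, and Col18a1 (0.16), Col4a3bp (0.64) and Mettl14 (0.32) turned positive. Leaving out 1 library in limma gave 0 to 61 higher members, 0 to 4 lower members, and a median log2 change of 1.55 to 1.89. By class it gave 0 to 21 collagens, 0 to 9 laminins, 0 to 8 metalloproteinases and 0 to 10 ADAMTS proteases higher. The zeros came without KO A or without KO B, where limma called 0 of all 14049 genes; at an unadjusted p under 0.05 it then had 41 members higher and 3 lower without KO A, and 47 higher and 1 lower without KO B. The 4 lower members without WT A were Col5a3, Lama3, Lamb3 and Mmp9, and the 2 without WT B were Adamts13 and Lama3. The stricter threshold of 0.01 gave 43 higher and 2 lower, and a mean count of at least 10 in the authors' deposited table, chosen after seeing the data, gave 51 and 2. The lowest and highest counts over the peak filters were 22 and 24 genes with a KO peak and 2 and 3 with a WT peak. Of the 44 genes of the naming rule, these 3 reversed under any setting; over all tested members total-count scaling turned 8 from negative to positive, also Lamb3 (0.25), Col5a3 (0.71), Col24a1 (0.57), Adamts13 (0.32), Adamtsl5 (0.46) and Mmp28 (0.18). No paired analysis was possible because the recovered libraries carry no replicate number. Depth limits the 18 untested members, and 2 libraries per genotype limit every test.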
